A study of Mus musculus with 4 samples.

Results

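The HIF hydroxylases and the subunits of HIF, whose alpha subunits they act on, were examined in the liver of mice given vitamin C. They are the genes of the prolyl hydroxylases Egln1, Egln2 and Egln3, of the asparaginyl hydroxylase Hif1an, of the subunits Hif1a, Epas1 and Arnt, and of the ubiquitin ligase subunit Vhl. Members were all array probes whose RefSeq accession mapped to 1 of these 8 symbols. This gave 12 of 41174 probes, for 7 of the 8 genes: no probe's accession mapped to Vhl, which was not analysed here. Egln1, Epas1 and Arnt had 2 probes each and Hif1an had 3. The series compared 4 livers of male C57Bl/6 Wrn mutant mice that had drunk water with 0.4% vitamin C since weaning with 4 livers of untreated male C57Bl/6 Wrn mutant mice, all aged 3 months. Both groups carried the mutant Wrn protein, a RecQ helicase of the kind that is lost in Werner syndrome, so the comparison holds no liver with normal Wrn. Each of 4 arrays held 1 treated liver in the Cy3 dye and 1 untreated liver in Cy5, and the labels call the 4 pairs biological replicates. Which allele of Wrn is mutated, and in which cells, is not given in the sources used here.

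HIF is a transcription factor made of an oxygen-labile alpha subunit, HIF-1 alpha (Hif1a) or HIF-2 alpha (Epas1), and a stable beta subunit (Arnt). While oxygen is present, EGLN enzymes hydroxylate prolines of the alpha subunit, the VHL ligase binds the hydroxylated form and the protein is degraded, and the asparaginyl hydroxylase FIH (Hif1an) blocks its contact with coactivators. These hydroxylases need oxygen, 2-oxoglutarate and iron, and ascorbate helps to keep the iron reduced, which is why vitamin C is of interest for them. Mice make their own ascorbate in the liver. Transcripts, not hydroxylation or protein stability, were measured here.

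Egln3 and Egln1 are known as HIF targets in many cells, and their promoters are shown because they were the hydroxylase genes that stood farthest from 0, on opposite sides. That of Hif1a is shown as the subunit with the largest mean. The sequences are those of RefSeq on the build GRCm38.p6, from 250 bases before to 50 bases after the gene's start, written 5' to 3'. They lie at chr8:124949205-124949504 on the minus strand (Egln1), at chr12:54203825-54204124 on the minus strand (Egln3) and at chr12:73907617-73907916 on the plus strand (Hif1a). Capitals mark the letters ACGTG, 1 spelling of the core of the hypoxia response element, and CACGT, the same letters on the opposite strand. Other spellings of the core were neither marked nor counted. Where both overlap, as in the Hif1a promoter, the capitals run together.
Egln1: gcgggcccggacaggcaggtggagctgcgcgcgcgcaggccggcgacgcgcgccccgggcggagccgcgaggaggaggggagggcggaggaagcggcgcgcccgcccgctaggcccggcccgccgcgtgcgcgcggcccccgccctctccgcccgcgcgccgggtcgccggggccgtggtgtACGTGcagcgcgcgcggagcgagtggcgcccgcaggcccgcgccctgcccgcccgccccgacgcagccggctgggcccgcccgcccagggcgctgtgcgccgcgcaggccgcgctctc
Egln3: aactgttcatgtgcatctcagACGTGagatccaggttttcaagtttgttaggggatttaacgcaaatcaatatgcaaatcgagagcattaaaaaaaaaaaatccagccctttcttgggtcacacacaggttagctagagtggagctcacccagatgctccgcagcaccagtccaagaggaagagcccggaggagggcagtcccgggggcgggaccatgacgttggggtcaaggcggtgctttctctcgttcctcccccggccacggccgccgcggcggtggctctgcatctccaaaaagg
Hif1a: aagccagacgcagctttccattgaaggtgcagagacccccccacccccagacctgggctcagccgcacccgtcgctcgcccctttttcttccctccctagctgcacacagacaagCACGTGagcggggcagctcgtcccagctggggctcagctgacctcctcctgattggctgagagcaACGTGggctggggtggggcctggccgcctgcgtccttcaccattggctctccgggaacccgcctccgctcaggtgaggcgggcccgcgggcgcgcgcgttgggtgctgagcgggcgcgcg
A promoter was held for 7 of the 8 genes, and for Egln2 there were 2 start sites. Of these 8 promoters 4 held ACGTG on either strand: those of Egln1, Egln3 and Hif1a and 1 of Egln2. Among 32851 promoters of the same length 19.6% held it. The promoters of Arnt, Vhl and Hif1an held neither ACGTG nor CACGT in this window.

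The ratios below set the vitamin C liver over the untreated one on a log2 scale and are listed for replicates 1 to 4 in that order, and levels are normalised log2 intensities of a probe. Levels of different probes are not comparable with each other. The direction rests on the dye labels: the authors' deposited log2 table runs the other way, as untreated over treated, although each title puts the treated liver before the untreated one. Had the dyes been the reverse of their labels, every sign given here would turn. With 0 dye-swapped arrays, a dye effect of a probe and an effect of the treatment cannot be told apart. All 12 probes were well above background in both channels on all 4 arrays, and 0 of their spots were saturated. Over all probes the arrays of replicates 1, 3 and 4 correlated with each other at r = 0.56 to 0.77, while that of replicate 2 correlated with them at -0.13 to 0.057 (over 41161 probes, a description, since probes are not replicates). Members whose mean passed, changed sign or moved by over 1.5 times without replicate 2 are also given without it. Repeat spots of 1 probe differed by a median SD of 0.061 to 0.074 in log2 ratio.

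No member passed the threshold. Of 12 member probes 0 had an adjusted p under 0.05 in limma's test, the background being 0% of 41174 probes, with a smallest adjusted p of 0.138. At an unadjusted p under 0.05 there were 3 member probes (25%), against 27.0% of all probes. The 3 were Egln3 and Hif1a, with means above 0, and the brighter probe of Egln1, below 0. Over all probes 11.8% were higher and 15.2% lower at that level. The median of the 12 means was -0.0054 and that of all probes -0.0060. Ratios had the same sign on all 4 arrays for 2 member probes (16.7%), against 30.9% of all probes. Egln3, above 0 on each of its 3 arrays, could not enter this count. A Hif1an probe was above 0 on all 4, as were 15.7% of all probes, and the brighter Egln1 probe was below 0 on all 4, as were 15.2%. The mean was above 0 for 5 of the 12, against 48.3% of all probes.

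**Figure D1:**
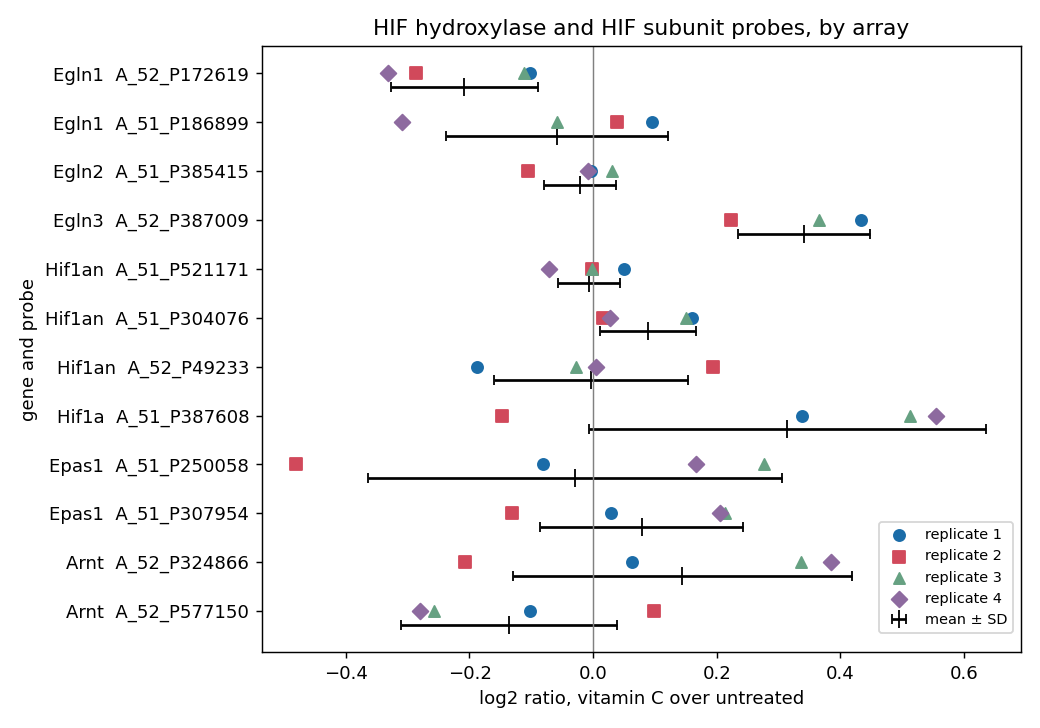
Log2 ratio of vitamin C over untreated liver (x axis) for the 12 member probes (y axis). Each symbol is 1 array, and the black bar below it is the mean ± SD; Egln3 has 3 arrays and the others 4. Egln3 lies above 0 on its 3 arrays, the brighter Egln1 probe lies below 0 on all 4, and Hif1a is above 0 on all arrays but that of replicate 2.

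Egln3 encodes PHD3, the prolyl hydroxylase whose transcript is the most readily induced by hypoxia in many cell types. Its probe A_52_P387009 had log2 ratios of 0.43, 0.22 and 0.37 on replicates 1 to 3. The spot of replicate 4 was marked by the scanner software as non-uniform in both channels and was left out; kept, it had 0.50. The treated livers had levels of 11.41, 11.38 and 11.35 and the untreated livers of the same arrays had 10.98, 11.16 and 10.98. All 3 treated livers were thus above all 3 untreated livers, and the treated values lay closer together than the untreated ones. How many of all probes separate in this way over 3 arrays was not counted, so no background share can be set beside it. The mean was 0.34 ± 0.11 (SD, n = 3), a fold of 1.27, with a 95% interval of 0.17 to 0.51 before any adjustment, and it did not pass over all probes (adjusted p = 0.138, limma). With the marked spot kept, the mean was 0.38 at the same adjusted p. Without replicate 2 the probe passed (mean 0.40, adjusted p = 0.0232, limma), but that value rests on 2 arrays. In that setting 9613 of 41174 probes passed in all. Centred without loess, the mean was 0.18. The authors' deposited table, with its sign turned, gave a mean of 0.40 over 4 arrays. In these bulk livers, a difference in the number of cells of a type and one in RNA per cell cannot be told apart.

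Egln1 encodes PHD2, held to be the main prolyl hydroxylase of HIF-1 alpha at normal oxygen. Its brighter probe, A_52_P172619, had -0.10, -0.29, -0.11 and -0.33. Treated livers had levels of 10.22, 10.15, 10.19 and 10.19 and untreated livers 10.32, 10.44, 10.30 and 10.53. The groups did not overlap, which was so for 7.06% of all probes, and the untreated livers of replicates 2 and 4 were the highest. The mean was -0.21 ± 0.12 (SD, n = 4), a fold of 0.866, and did not pass (adjusted p = 0.143, limma). The dimmer Egln1 probe, A_51_P186899, gave 0.095, 0.038, -0.058 and -0.31, with a mean of -0.059 ± 0.18 and an adjusted p of 0.640 (limma). Both probes had their lowest ratio on replicate 4, and they had opposite signs on replicates 1 and 2. Without replicate 2 the dimmer probe had -0.091. Its 95% interval over all arrays, -0.25 to 0.13, includes the mean of the brighter one. When arrays were centred without loess the brighter probe passed (-0.35, adjusted p = 0.0151), a setting in which 14125 probes passed in all.

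Egln2 encodes PHD1, a prolyl hydroxylase that is mostly nuclear. The ratios of its probe A_51_P385415 were -0.0036, -0.10, 0.030 and -0.0078, and its mean was -0.021 ± 0.058 (SD, n = 4; adjusted p = 0.792, limma). Treated livers had 12.11, 12.01, 12.01 and 12.04 and untreated livers 12.11, 12.11, 11.98 and 12.05, so the groups overlapped. The 95% interval of the mean ran from -0.14 to 0.096. Its SD over arrays was smaller than that of repeat spots of 1 probe, and the sign turned without replicate 2 (0.0063) and with Agilent's processed signals (0.077).

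Hif1an encodes FIH, the asparaginyl hydroxylase that acts on the C-terminal activation domain of the alpha subunits. Its brightest probe, A_51_P521171, had 0.049, -0.0016, -0.0026 and -0.072, with a mean of -0.0067 ± 0.050 (SD, n = 4) and a 95% interval of -0.12 to 0.11. The next, A_51_P304076, was above 0 on all 4 arrays, at 0.16, 0.016, 0.15 and 0.028, with a mean of 0.089 ± 0.077. The dimmest, A_52_P49233, had -0.19, 0.19, -0.027 and 0.0050, and a mean of -0.0041 ± 0.16. None of the 3 passed (adjusted p of 0.937, 0.298 and 0.975, limma), and for each of them treated and untreated levels overlapped. Without replicate 2 the dimmest probe had -0.070. The sign of the brightest probe was turned by Agilent's processed signals (0.12) and without replicate 4 (0.015).

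**Figure D2:**
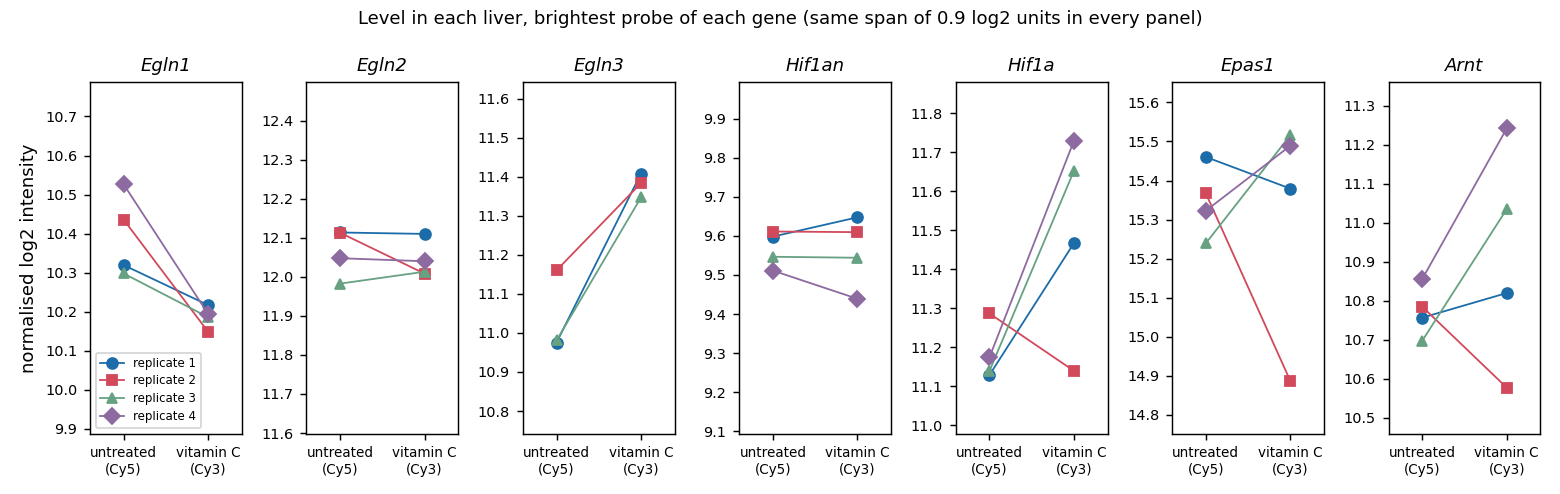
Normalised log2 intensity of the brightest probe of each gene (y axis, the same span in every panel) in the untreated (Cy5) and vitamin C (Cy3) liver of each array, joined by a line. Treated Egln1 levels of 10.15 to 10.22 lie below the untreated levels of 10.30 to 10.53, and for Hif1a, Epas1 and Arnt the line of replicate 2 runs down while that of replicate 3 runs up; Egln3 shows 3 arrays.

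Hif1a encodes HIF-1 alpha, the substrate of these enzymes that drives much of the acute response to hypoxia. The ratios of its probe A_51_P387608 were 0.34, -0.15, 0.51 and 0.55. Treated livers had levels of 11.47, 11.14, 11.65 and 11.73 and untreated livers 11.13, 11.29, 11.14 and 11.17. The treated livers of replicates 1, 3 and 4 lay above every untreated liver, whereas that of replicate 2 lay within the untreated range. The untreated levels kept to a narrow band (SD 0.072), and the treated levels had an SD of 0.26. The mean ratio was 0.31 ± 0.32 (SD, n = 4), a fold of 1.24, with a 95% interval of 0.013 to 0.62 before adjustment, and it did not pass (adjusted p = 0.175, limma). Without replicate 2, the only array with a ratio below 0, the mean was 0.47 and passed (adjusted p = 0.0124, limma). In that setting 9613 of 41174 probes passed in all. The mean of Hif1a was 0.23 without replicate 4 and 0.25 without replicate 3, and did not pass (adjusted p of 0.424 and 0.487, limma). Without loess it was 0.16.

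Epas1 encodes HIF-2 alpha, which is abundant in endothelium and, in liver, is tied to control of lipid and iron genes. Its brighter probe, A_51_P250058, had -0.081, -0.48, 0.28 and 0.17, and its dimmer probe, A_51_P307954, 0.029, -0.13, 0.21 and 0.20. Both probes were lowest on replicate 2 and highest on replicate 3, and they had the same sign on all arrays but that of replicate 1. Treated levels of the brighter probe were 15.38, 14.89, 15.52 and 15.49, against 15.46, 15.37, 15.24 and 15.32 in untreated livers. The treated liver of replicate 2 was the lowest of the 8 and the groups overlapped. The means were -0.030 ± 0.34 and 0.079 ± 0.16 (SD, n = 4 each), and neither passed (adjusted p of 0.897 and 0.50, limma). Without replicate 2 the mean of the brighter probe changed sign, to 0.12, and that of the dimmer probe was 0.15 (adjusted p of 0.310 and 0.124, limma).

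Arnt encodes HIF-1 beta, the partner of both alpha subunits and of the aryl hydrocarbon receptor. Its brighter probe, A_52_P324866, had 0.063, -0.21, 0.34 and 0.39, and its other probe, A_52_P577150, -0.10, 0.098, -0.26 and -0.28. The probes had opposite signs on all 4 arrays, and the array on which the brighter probe was below 0, that of replicate 2, was the only one on which the other was above it. Their difference, brighter minus dimmer, was 0.16, -0.31, 0.59 and 0.67. The means were 0.14 ± 0.27 and -0.14 ± 0.17 (SD, n = 4 each; adjusted p of 0.401 and 0.285, limma). Without replicate 2 they were 0.26 and -0.21, and neither passed (adjusted p of 0.0655 and 0.0527, limma). No direction can therefore be given for Arnt as a gene. Both probes carry the same accession, and where each lies in the transcript was not examined.

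**Figure D3:**
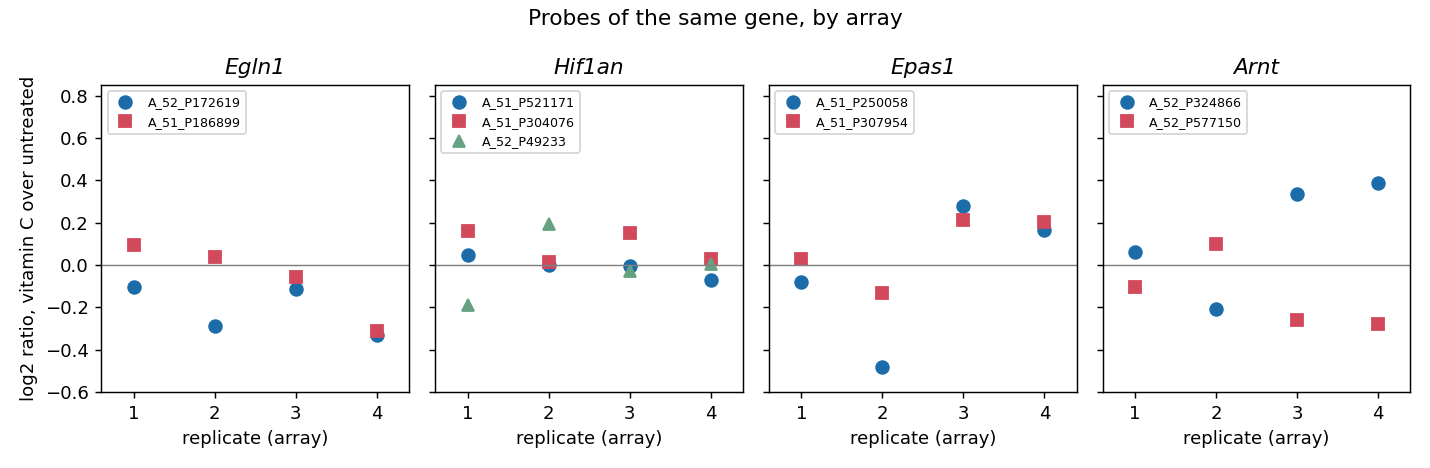
Log2 ratio of vitamin C over untreated liver (y axis) by array (x axis) for the 4 genes with several probes, 1 symbol per probe. The 2 Epas1 probes run alike, from -0.48 and -0.13 on replicate 2 to 0.28 and 0.21 on replicate 3, and the 2 Arnt probes lie on opposite sides of 0 on every array.

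The brightest probes of the 3 HIF subunits were alike in part over the arrays. Each was lowest on replicate 2, at -0.15 for Hif1a, -0.48 for Epas1 and -0.21 for Arnt, and each was at 0.28 or more on replicate 3. Hif1a and Arnt were highest on replicate 4 and Epas1 on replicate 3. Of the dimmer probes, that of Epas1 was also lowest on replicate 2 (-0.13), while that of Arnt was highest there (0.098). How many of all probes were lowest on replicate 2 was not counted, so no background share can be set beside this. Among the hydroxylases, Egln3 was also lowest on replicate 2 among its 3 arrays (0.22), Egln2 was lowest there (-0.10), and the brighter Egln1 probe was lowest on replicate 4. The brightest Hif1an probe was lowest on replicate 4 (-0.072) and the middle one on replicate 2 (0.016), where the dimmest was highest (0.19). Without replicate 2, 2 of the 12 member probes passed, Egln3 and Hif1a, while 9613 of all 41174 probes passed.

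Other genes around these enzymes were read by the brightest probe of each gene, in 3 lists that together held 102 genes with a probe out of 108. At an adjusted p under 0.05, 0 of the 102 passed (limma), the background being 0% of 17305 genes with a symbol. At an unadjusted p under 0.05 there were 40 (39.2%), 20 higher and 20 lower, against 29.7% of all genes with a symbol, of which 15.0% were higher and 14.7% lower. The lists shared 7 genes. Their members were picked with earlier results of these data known.

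Of 24 other regulators of HIF, 3 were higher and 3 lower at an unadjusted p under 0.05, and the median was 0.020, against 0.0070 for all genes with a symbol. Siah2, a ubiquitin ligase that targets the Egln2 and Egln3 proteins, had 0.35, 0.080, 0.40 and 0.45. Fkbp8, a chaperone that binds PHD2, had a mean of 0.23 ± 0.090 (SD, n = 4), and the coactivator gene Ep300 had 0.16 ± 0.045. Rack1, a scaffold that promotes oxygen-independent loss of HIF-1 alpha, had -0.35, -0.23, -0.43 and -0.27, and the chaperone gene Hsp90aa1, whose product protects HIF-1 alpha, had -0.45 ± 0.30. These 5 had the same sign on all 4 arrays, which was a condition for naming them, and adjusted p values of 0.138 to 0.143 (limma). Hif3a, the third alpha subunit gene, which lacks the C-terminal activation domain, had -0.25, 0.055, -0.37 and -0.28, so that replicate 2 again had the opposite sign (adjusted p = 0.168, limma). The VHL ligase partners Elob, Eloc, Cul2 and Rbx1 had means of 0.024, 0.021, 0.036 and 0.11.

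Of 53 HIF target genes, 13 were higher and 12 lower at an unadjusted p under 0.05, with a median of -0.0041. Trf (transferrin), Ldha (lactate dehydrogenase) and Cp (ceruloplasmin) had the smallest p among those lower, with means of -0.59 ± 0.13, -0.36 ± 0.11 and -0.31 ± 0.091 (SD, n = 4 each). Pkm and Pfkl, of glycolysis, and the demethylase gene Kdm4b had the smallest p among those higher, at 0.34 ± 0.14, 0.35 ± 0.17 and 0.28 ± 0.13. All 6 had an adjusted p of 0.138 (limma). Genes of glycolysis thus stood on both sides of 0. Trf and Ldha belong to the 164 brightest probes, those at log2 intensity 17 and over, and the median ratio of these was -0.30. The highest mean of the list was that of Igfbp1, an insulin-like growth factor binding protein gene that also responds to fasting and insulin, singled out here after its values were seen. Its ratios were 1.60, -0.61, 1.54 and 1.49, with a mean of 1.00 ± 1.08 (adjusted p = 0.173, limma), with replicate 2 alone below 0. Vegfa, the angiogenic factor gene, and Slc2a1, the glucose transporter gene, were added as textbook HIF targets. Vegfa had -0.081, -0.30, 0.048 and 0.46 and a mean of 0.032 ± 0.32, and Slc2a1 had -0.41, -0.23, -0.55 and -0.16 and a mean of -0.34 ± 0.17 (adjusted p of 0.883 and 0.138, limma).

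Of 32 other 2-oxoglutarate oxygenases, enzymes with the same cofactors as the HIF hydroxylases, 5 were higher and 6 lower at an unadjusted p under 0.05, with a median of 0.020. Ogfod1, a prolyl hydroxylase of a ribosomal protein, had the lowest mean, with -0.75, -0.21, -1.19 and -1.15 and a mean of -0.82 ± 0.46 (SD, n = 4). P4ha2, a collagen prolyl hydroxylase, and Phyh, of phytanate oxidation, had -0.31 ± 0.13 and -0.21 ± 0.085. Phyh belongs to the 164 brightest probes, whose median ratio was -0.30. Kdm4b, Ogfod3 and Bbox1, the last of carnitine synthesis, had 0.28 ± 0.13, 0.26 ± 0.15 and 0.25 ± 0.18. None of the 6 passed (adjusted p of 0.138 to 0.146, limma). The transmembrane prolyl hydroxylase P4htm, which is related to the EGLN enzymes, had a mean of 0.036 ± 0.037.

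**Figure D4:**
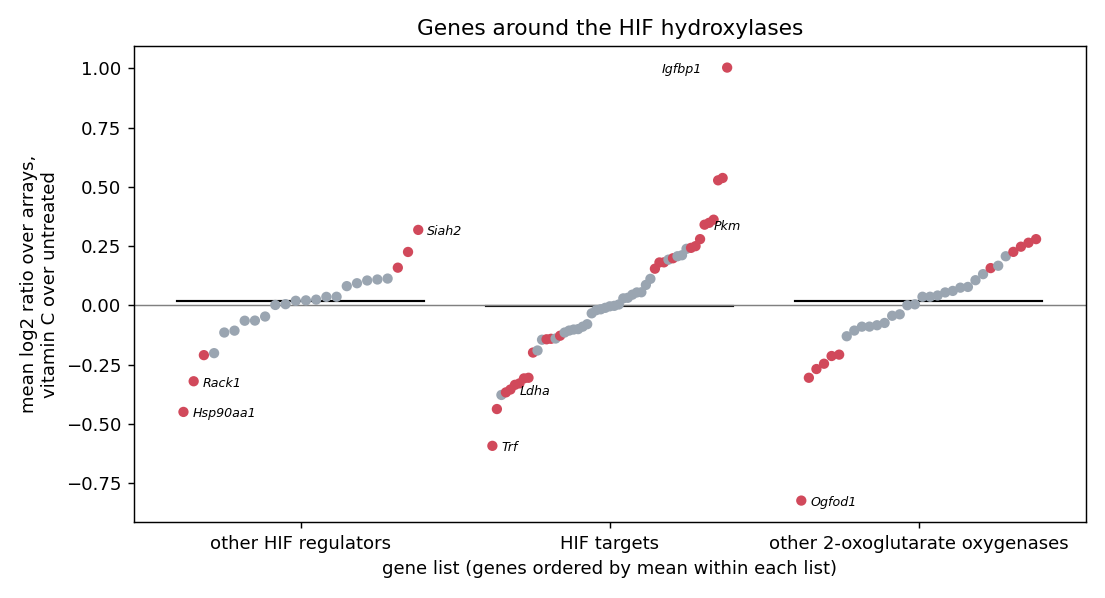
Mean log2 ratio of vitamin C over untreated liver over 4 arrays (y axis) for each gene of the 3 lists (x axis, ordered by mean within a list). Red points had an unadjusted p under 0.05, grey points did not, and black lines are list medians of 0.020, -0.0041 and 0.020; the means of HIF targets run from -0.59 for Trf to 1.00 for Igfbp1.

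Markers of the cell types in liver were read the same way. All 6 hepatocyte markers with a probe were well above background. Of these, 2 had a mean above 0 and 4 below, and their median was -0.20. The summed log2 intensity was 18.94 to 19.31 in treated and 19.50 to 19.53 in untreated livers, so that these sums did not overlap. That was not particular to hepatocyte markers. The sums of the HIF targets (19.88 to 19.96 and 20.06 to 20.14) did not overlap either. Nor did those of the other HIF regulators (18.33 to 18.43 and 18.44 to 18.59) and of the oxygenases (17.92 to 18.01 and 18.04 to 18.11). Of the 6, Alb (mean -0.70), Apoa1 (-0.26) and Tat (-0.41) are among the brightest probes, whose median was -0.30. The dimmer Ttr, Tdo2 and Hnf4a had 0.11, -0.13 and 0.077. Of 10 endothelial markers, 8 had a mean above 0, as had 8970 of 17305 genes with a symbol. The 2 below 0 were Stab2 (-0.060) and Tek (-0.034), and Pecam1 was at 0.00021. Their median was 0.077, and summed log2 intensities were 15.34 to 15.68 in treated and 15.39 to 15.53 in untreated livers. Tie1, at 0.19 ± 0.11, and Clec4g, at 0.12 ± 0.078, were the endothelial markers above 0 on all 4 arrays. Of the 17305 genes with a symbol, 3169 were above 0 on all 4. The endothelial array medians were 0.13, -0.068, 0.14 and 0.14, lowest on replicate 2. Medians of stellate and fibroblast markers (-0.012), of T and NK cell markers (0.011) and of all genes with a symbol (0.0019) were also lowest there. Those of the remaining marker lists were lowest on another array. Markers of Kupffer cells and macrophages had array medians of -0.35, 0.28, 0.053 and 0.41, with summed log2 intensities of 15.67 to 16.47 and 15.68 to 16.20. The medians of the other 6 marker lists were -0.18 to 0.090. The part of these shifts in the members' ratios was not tested.

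The genes whose ratios were most like those of Egln3, the member with the smallest p, over its 3 measured arrays were Garem1, Ppil2 and Rnf214, with root mean square differences of 0.011, 0.015 and 0.018 in log2 ratio. Among 24447 candidate probes 353 lay within 0.1 of it, so a likeness of that size over 3 arrays is not particular to these genes. How many probes lie as near to other probes was not counted.

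**Figure D5:**
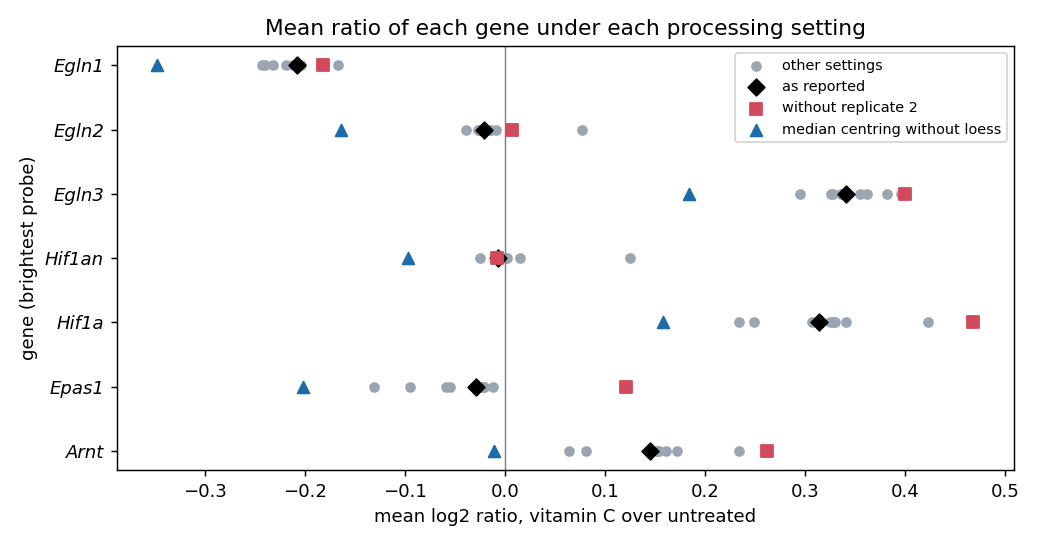
Mean log2 ratio of vitamin C over untreated liver (x axis) of the brightest probe of each gene (y axis) under each processing setting. Egln1 stays below 0 (-0.35 to -0.17) and Egln3 (0.18 to 0.40) and Hif1a (0.16 to 0.47) stay above 0 in every setting drawn, whereas Egln2, Hif1an, Epas1 and Arnt have settings on both sides.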

How the data were processed

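Spot intensity values were deposited by the authors written by Agilent's Feature Extraction software, version 10.5.1.1 per the file headers: median signals and local backgrounds per channel, processed signals, and a log10 ratio (Cy5 over Cy3) that was not used. The authors also deposited a table of log2 values; the submitters' processing notes name limma, and its other steps are not stated there. Against the log2 Cy5 over Cy3 obtained here from the spot signals, as described below, its columns had r = 0.950 to 0.980 and slopes of 1.10 to 1.18. Their medians were 0.0014 to 0.0050. The direction and centring of the table were thus settled and its exact scale was not. The 4 arrays lay on 1 slide with 1 scan date.

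Here, normexp (offset 50) on median signals and backgrounds and loess with control spots at weight 0 were applied in limma 3.58.1 (R 4.3.3; statmod 1.5.0). Spots marked as feature outliers were left out and spots of a probe averaged. Levels per channel were taken after Aquantile scaling. Accessions gave 1 symbol for 25097 of 41174 probes (61%) in a RefSeq table of GRCm38.p6; the array header names another build, so probes have no coordinates here. Each probe's ratios were tested against 0 (lmFit, eBayes; Benjamini-Hochberg over all probes, threshold 0.05). Intervals are limma's moderated 95% intervals, and the number of arrays limits their precision. Median signals were 380 to 530 in Cy3 and 813 to 962 in Cy5, against 62 to 67 and 66 to 80 on negative controls.

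In simulated data with 41174 probes on 4 arrays, 74% and 84% of probes changed by 1.5 and 2 times were recovered, and 2.73% of calls were false. The simulated noise was independent for each probe and array, with 50 changed probes at each fold and no divergent array such as replicate 2. These shares therefore do not say what could have been recovered in the livers. Members, lists and tests were chosen with earlier results of these data known. Genes of the lists were named if they had the same sign on all arrays and an unadjusted p under 0.05, up to 3 a direction by smallest p; Hif3a, the VHL partners, P4htm, Igfbp1, Vegfa, Slc2a1 and the hepatocyte markers were added after values were seen. Figures were drawn with Python 3.11.15.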

Additional observations from a re-analysis of the deposited data

Results flagged for a closer look

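The sets examined were ratios and levels of the member probes with 4 arrays, and ratios of the list genes named by sign and unadjusted p. Genes added after values were seen were not examined in this way. Among them is Igfbp1, whose replicate 2 stood apart at -0.61. Of the 49 sets of 4 values examined, 1 had a value far from the others. The ratio of Trf, the transferrin gene, was -0.78 on replicate 3, while the other 3 arrays lay between -0.53 and -0.52. Chance alone marks about 1 in 20 such sets. Trf is among the probes with a log2 intensity of 17 or more.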

How the results depend on the processing

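Across 16 alternatives, Egln1 (brighter probe, -0.35 to -0.17) and Hif1a (0.16 to 0.47) kept their direction, as did Egln3 (0.18 to 0.40) under the 15 that could be run for it; the separate-channel fit needed all 4 arrays. These 3 passed only as follows: Egln1 without loess, and Egln3 and Hif1a without replicate 2. The middle Hif1an probe (0.065 to 0.22) and the dimmer Arnt probe (-0.28 to -0.087) also kept theirs under the 15 run for them, and the other 7 probes changed sign under at least 1. Centred without loess, the dimmer Egln1 probe had 0.039, the dimmest Hif1an probe 0.19, the dimmer Epas1 probe -0.010 and the brighter Arnt probe -0.012. Agilent's processed signals gave 0.077 for Egln2 and 0.12 for the brightest Hif1an probe. After subtraction of a running median over intensity, the brightest and dimmest Hif1an probes had 0.0018 and 0.013, and with a normexp offset of 0 the dimmest had 0.0085. With an array left out, ranges were -0.11 to 0.025 (dimmer Egln1), -0.039 to 0.0063 (Egln2), -0.025 to 0.015 and -0.070 to 0.057 (brightest and dimmest Hif1an) and -0.13 to 0.12 (brighter Epas1). Of all probes, 0 passed as reported, 1 passed with Agilent's processed signals, 14125 without loess, 1252 when the channels were fitted separately with arrays as random blocks, and 0 to 9613 with an array left out. At an unadjusted p under 0.05 the 11118 probes became 19783 without loess and 4304 to 16666 with an array left out. Member probes that passed numbered 1 without loess and 0 to 2 with an array left out, and 1 to 5 at an unadjusted p under 0.05. Of the 102 list genes, 30 passed without loess, 13 in the separate-channel fit and 0 to 34 with an array left out, and 22 to 54 at an unadjusted p under 0.05. The cause was not tested. The ratio within each array already pairs its 2 livers, and the fit of separate channels pairs them through the array. Each member probe had 1 spot per array.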
